A study of Homo sapiens with 16 samples.

Results

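The chaperones described here were 10 heat shock genes of the cytosol and mitochondria, measured in SUM-225 cells, a HER2-amplified human breast cancer cell line, during 45 h in which the HER2 kinase was blocked with the inhibitor CP724,714 (1 µM). Every probe of the bead array that carried one of the 10 gene symbols was taken, 14 probes of 24526 in the table. The HSPA9 probe was listed under HSPA9B, an older symbol of the same gene, and the other 13 were listed under the current symbols. The labels give the medium as Ham's F-12 with serum, insulin and hydrocortisone, whereas the study's methods describe serum-free medium without insulin for this line, and which of these applied to the course was not settled. The study's methods describe, for its other cell lines, cultures plated side by side and taken for RNA every 3 h after the inhibitor was added. The labels of these samples give the same intervals. The 0 h culture was read here as the start before treatment, although its title, like the others, calls it treated. Each of the 16 time points had 1 array, so no time point had a replicate, and no untreated course was analysed here. The study's methods describe a medium change at the start of treatment for its time courses, so inhibitor, fresh medium and time in culture cannot be told apart. All 7 epithelial and HER2 amplicon marker genes (ERBB2, GRB7, KRT8, KRT18, KRT19, EPCAM and CDH1) were detected on all 16 arrays. Of 8 marker genes of other cell types, 2 were detected on all arrays, with signals of 282 to 518 for PECAM1 and 546 to 1559 for ACTA2. VWF was detected on 13 arrays (signals of 173 to 468), COL1A1 and COL1A2 on 5 each, and 3 of the 8 genes on fewer than 3 arrays.

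Heat shock chaperones bind unfolded stretches of other proteins and let them fold. HSP70 proteins do this in cycles of ATP binding and hydrolysis: a J-domain partner such as DNAJB1 delivers the client and starts hydrolysis, and an exchange factor such as HSPH1 resets the cycle. HSP90 takes over clients that are partly folded, many of them kinases, HER2 among them. HSPB1 is a small heat shock protein that holds unfolded clients without ATP, and in mitochondria HSPA9 draws proteins through the inner membrane while HSPD1 and HSPE1 form the chamber in which they fold. The heat shock factor HSF1 switches on many of these genes by binding heat shock elements, inverted repeats of the units GAA and TTC, in their promoters.

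The promoters of 4 of the genes are shown because these genes stand for the different courses described below: HSPA1A and DNAJB1 were lower during the first hours and higher again at 12 to 21 h, and HSPA8 and HSPD1 fell over the course. The sequences are those of RefSeq on assembly GRCh38.p14, each running 5′ to 3′ on the strand of the gene from 250 bases before the start site to 50 bases after it. Capitals mark matches to the heat shock element letters GAANNTTC or TTCNNGAA, each of which is its own reverse complement, so that both strands were searched; overlapping matches are joined. HSPA1A lies on the plus strand at chr6:31815293-31815592, and DNAJB1 on the minus strand at chr19:14518348-14518647. HSPA8 lies on the minus strand at chr11:123062087-123062386, and HSPD1 on the minus strand at chr2:197499791-197500090. Of the 3 windows RefSeq gives for DNAJB1 and the 2 for HSPD1, those with the most matches are shown.
HSPA1A: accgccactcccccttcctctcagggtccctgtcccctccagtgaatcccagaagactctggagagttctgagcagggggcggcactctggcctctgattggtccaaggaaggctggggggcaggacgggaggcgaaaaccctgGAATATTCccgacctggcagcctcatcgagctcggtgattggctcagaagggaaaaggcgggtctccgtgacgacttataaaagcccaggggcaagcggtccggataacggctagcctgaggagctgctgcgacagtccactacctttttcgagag
DNAJB1: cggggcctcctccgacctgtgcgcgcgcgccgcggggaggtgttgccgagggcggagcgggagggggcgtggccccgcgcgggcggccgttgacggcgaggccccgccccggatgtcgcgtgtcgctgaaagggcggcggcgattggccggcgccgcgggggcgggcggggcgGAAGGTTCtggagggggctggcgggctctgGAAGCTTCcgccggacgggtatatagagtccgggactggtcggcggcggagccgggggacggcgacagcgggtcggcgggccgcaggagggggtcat
HSPA8: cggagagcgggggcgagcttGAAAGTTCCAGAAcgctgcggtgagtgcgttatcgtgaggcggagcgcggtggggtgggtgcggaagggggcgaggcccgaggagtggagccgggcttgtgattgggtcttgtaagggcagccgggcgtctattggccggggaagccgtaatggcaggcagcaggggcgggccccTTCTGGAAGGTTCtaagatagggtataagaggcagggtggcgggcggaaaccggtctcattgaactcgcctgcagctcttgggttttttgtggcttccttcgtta
HSPD1: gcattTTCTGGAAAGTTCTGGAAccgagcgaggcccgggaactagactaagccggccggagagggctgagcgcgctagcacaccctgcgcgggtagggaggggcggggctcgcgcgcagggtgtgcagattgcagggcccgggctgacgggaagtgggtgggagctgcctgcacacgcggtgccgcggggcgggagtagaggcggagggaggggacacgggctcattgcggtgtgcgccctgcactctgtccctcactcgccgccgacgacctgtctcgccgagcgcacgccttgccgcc

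The HSPA1A match, GAATATTC, began 106 bases before the start site. HSPA1B, the neighbouring copy of the gene, has its start site 12195 bases away and holds the same 8 letters at 105 bases, and the promoters of this pair were identical at 277 of 299 aligned bases. The DNAJB1 window held GAAGGTTC at 77 and GAAGCTTC at 47 bases before the start site. The HSPA8 window held 2 longer matches with 3 units, GAAAGTTCCAGAA at 230 and TTCTGGAAGGTTC at 55 bases. The HSPD1 window began close to the stretch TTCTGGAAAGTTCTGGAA, 245 bases before the start site. HSPD1 and HSPE1 are read in opposite directions, from start sites 539 bases apart for the HSPD1 window shown and 105 bases apart for the other HSPD1 window. The same stretch ends 294 bases before the HSPE1 start site, outside the HSPE1 window. Of the 10 genes, 8 had at least 1 match in a promoter window, the exceptions being HSPH1 and HSPE1, against 14.6% of 9641 genes with a promoter and a tested probe. Matches with 3 units (GAANNTTCNNGAA or TTCNNGAANNTTC) were found for HSPA8, HSP90AA1 and HSPD1, against 0.488% of the same 9641 genes. Over all 35116 promoter windows in the table, which hold several windows for some genes, 13.5% had a match with 2 units and 0.49% one with 3. A match describes the letters of the window only, and no binding was measured.

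Signal is the brightness of a probe's beads in arbitrary units, and the brightest probe of each array read between 71727 and 74152. A probe was called near the top of the scale where it reached at least 50% of the brightest probe on any array. By this rule 7 of the 14 probes were near the top: HSPB1, the brighter HSP90AA1 probe, both HSPA8 probes, HSPA1A, HSPA1B and the brightest HSPD1 probe. The HSPB1 probe stayed between 94.7 and 99.5% of the array maximum on all 16 arrays, which leaves almost no room to read a higher level. The brighter HSP90AA1 probe lay between 65.9 and 95.8%, also near the top on all 16 arrays. HSPA1A crossed the scale more widely, from 21% at 6 h to 90.5% at 21 h, and was past 50% on 8 arrays. The dimmest HSPD1 probe (ILMN_1774410), with signals of 156 to 219, was detected on 0 arrays and was not tested. The other 13 probes, which cover all 10 genes, were detected on all 16 arrays.

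**Figure D1:**
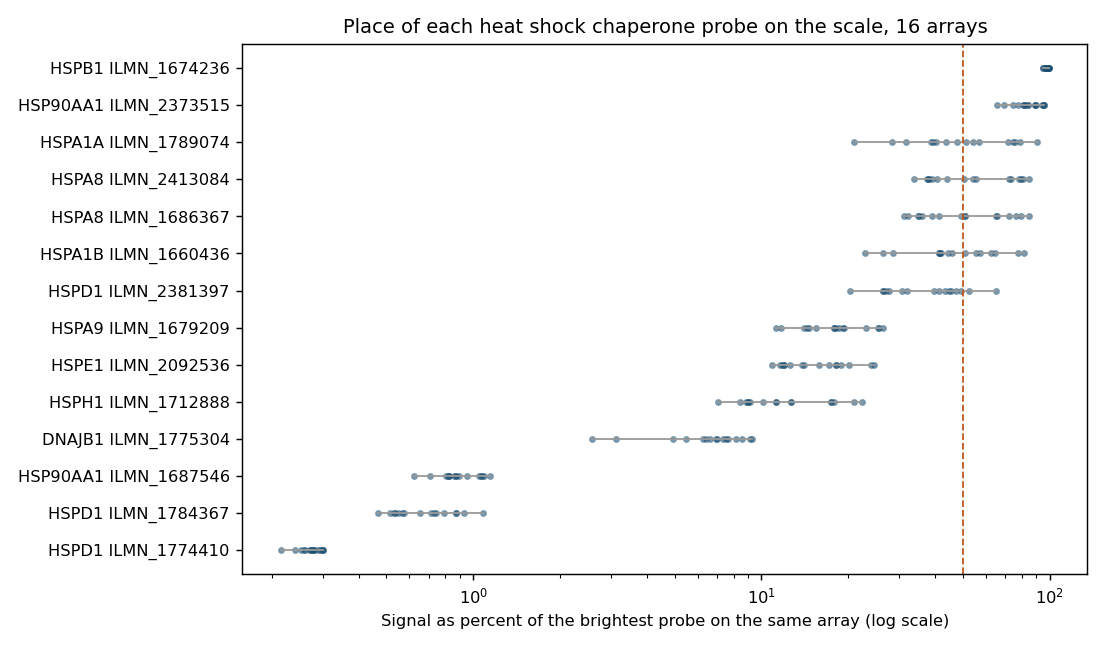
Signal of each of the 14 probes as percent of the brightest probe on the same array (log scale), with 1 point per array and a dashed line at 50%. The HSPB1 points lie together at 94.7 to 99.5%, and 7 probes have at least 1 point past the line.

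The 13 tested probes are described in 3 groups, of which the first 2 overlap. HSPA1A, HSPA1B, DNAJB1 and HSPH1 were lower at 3 to 9 h than at 0 h and higher again at 12 to 21 h. HSPA8, HSPD1, HSPE1 and the brighter HSP90AA1 probe were lower at the end of the course than at its start, with a step down at 24 h that was marked for HSPA8 and HSPE1. That step was also present for HSPA1A, HSPA1B and HSPH1 (log2 differences of -0.77, -0.54 and -0.88). HSPA1A and HSPH1 also ended below their 0 h value (-0.52 and -0.93). Over the 16 arrays Pearson's r of HSPH1 was 0.82 with HSPA8 (ILMN_2413084), 0.76 with HSPA1A, 0.57 with HSPA1B and 0.11 with DNAJB1. HSPA9, HSPB1 and the dimmer HSP90AA1 probe passed no test with the settings used throughout. Values were normalized and set on a log2 scale, and a cubic curve in time was fitted to each probe with limma, with p-values adjusted over all 16110 tested probes and called below 0.05. The fit called 6 of the 13 probes time-dependent, where 51.3% of all tested probes were called. Over the 45 h, 6 probes fell (21.7% of all tested probes fell) and 1 rose (26% rose). A departure from a straight line was called for 2 probes, both of HSPD1 (19.3% of all). The median linear change was -0.28 on the log2 scale over the 13 probes and 0.05 over all tested probes. In bulk cultures such as these, fewer cells with a transcript and less of it per cell cannot be told apart.

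A cubic curve cannot follow a drop and return within 12 h, so means of time windows were compared as well. These were the 0 h array alone, the early arrays (3 to 9 h), the arrays of 12 to 21 h, those of 24 to 33 h and the last arrays (36 to 45 h). The windows were chosen after these values had been seen, and the 0 h window holds 1 array, whose error was taken from the other windows. From 0 h to 3 to 9 h, 4 probes were lower, where 1.19% of all tested probes were lower, and 0 were higher, where 1.14% were higher. From 3 to 9 h to 12 to 21 h, 4 probes were higher (14.8% of all) and 2 lower (12.9%). From 12 to 21 h to 24 to 33 h, 8 probes were lower (4.11%) and 0 higher (5.2%). From 24 to 33 h to 36 to 45 h, 1 probe was higher (0.9%) and 0 lower (3.11%). Against 0 h, 8 probes were lower at 36 to 45 h (16.5%) and 0 higher (18.9%). At an unadjusted p under 0.05 these counts of 0 stayed at 0, apart from 1 probe that was lower at 36 to 45 h than at 24 to 33 h. In that step 8 probes were higher at the unadjusted threshold, against 1 after adjustment. The share of all tested probes at the unadjusted threshold was not taken. The windows after 0 h match 4 sets of consecutive arrays. Time and set thus cannot be told apart for the steps between 9 and 12 h, 21 and 24 h, and 33 and 36 h. The step from 0 h to 3 to 9 h lies within the first set. The labels name no batch. The root mean square change over all tested probes was 0.35 from 0 to 3 h, 0.42 from 9 to 12 h and 0.36 from 21 to 24 h, within a range of 0.26 to 0.42 over the 15 intervals.

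**Figure D2:**
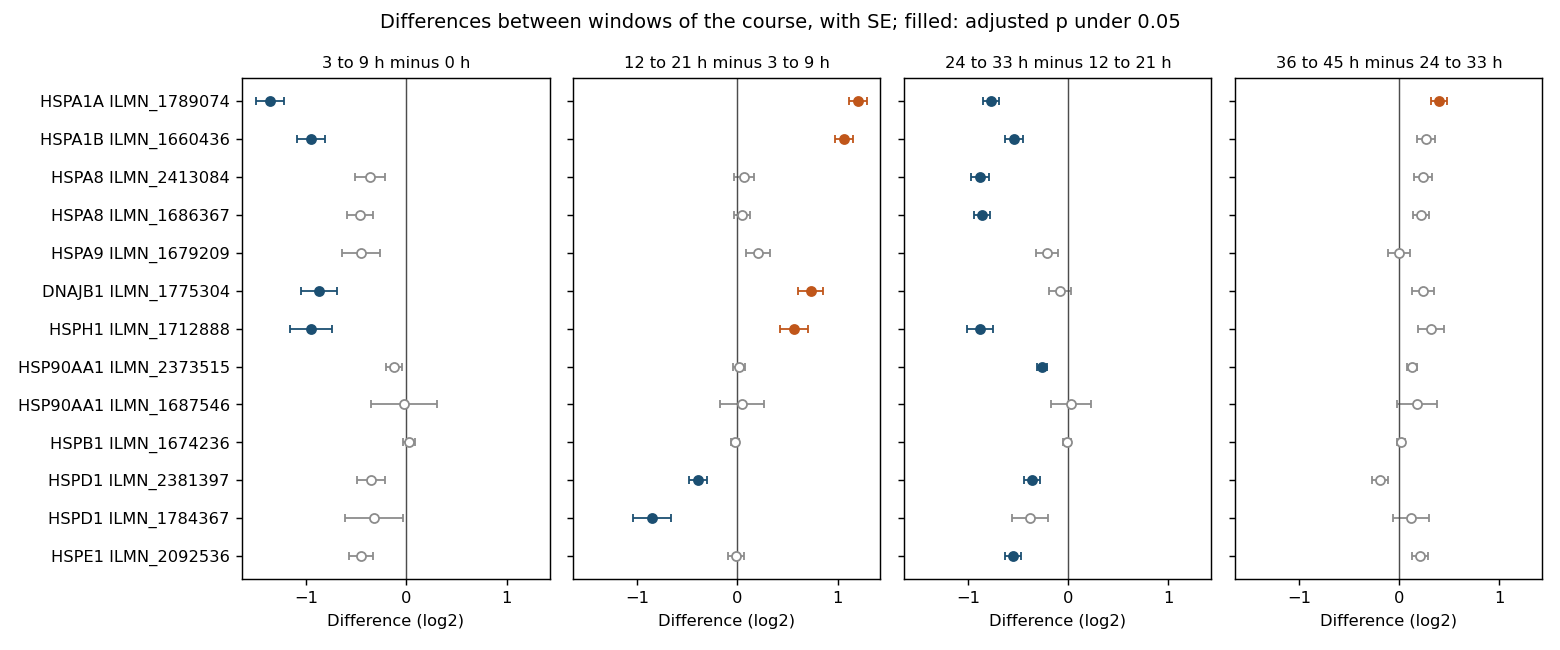
Difference in mean log2 value between neighbouring windows for each of the 13 tested probes, with standard errors; filled points passed an adjusted p of 0.05, blue for lower and orange for higher. HSPA1A, HSPA1B, DNAJB1 and HSPH1 lie to the left in the first panel and to the right in the second, and 8 probes lie to the left in the third.

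HSPA1A encodes the main stress-inducible HSP70, which is made in large amounts when proteins unfold. Its signal was 58262 at 0 h and then 22929, 15353 and 20483 at 3, 6 and 9 h. At 12, 15, 18 and 21 h it was 53154, 54535, 54984 and 64980. The first hours were low on all 3 arrays, and the 12 h array was back close to the start. From 24 h the signal was 29201, 41435, 27988 and 28582, and from 36 h it was 34577, 37291, 38845 and 31363. All arrays from 24 h on lay between the low first hours and the high 12 to 21 h window. On the normalized scale HSPA1A was 2.56-fold lower at 3 to 9 h than at 0 h (log2 difference -1.36, SE 0.14, limma adjusted p = 7.49e-06) and 2.3-fold higher at 12 to 21 h than at 3 to 9 h (1.20, SE 0.09, adjusted p = 3.61e-08). It was then 1.7-fold lower at 24 to 33 h (-0.77, SE 0.08, adjusted p = 8.84e-06) and 1.32-fold higher at 36 to 45 h (0.40, SE 0.08, adjusted p = 0.0061). None of these pairs of neighbouring windows overlapped. At 36 to 45 h HSPA1A was still 1.44-fold below 0 h (-0.52, SE 0.13, adjusted p = 0.00409; -0.53 with array weights, adjusted p = 0.137). Between 0 and 3 h alone the value changed by -1.08, and 0.745% of all tested probes changed further down in that interval. With its ups and downs, the linear change over the course was 0.16 with an SE of 0.35 (adjusted p = 0.732).

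HSPA1B, which encodes nearly the same HSP70 protein, followed the same line. Its signal was 42408 at 0 h, 19098, 16727 and 20662 at 3, 6 and 9 h, and 47725, 45567, 56611 and 58678 at 12, 15, 18 and 21 h. It was 30430, 37016, 32017 and 29960 from 24 to 33 h and 30353, 33264, 39796 and 29602 from 36 to 45 h. The first hours were again the lowest of the course and 12 to 21 h the highest. HSPA1B was 1.93-fold lower at 3 to 9 h (-0.95, SE 0.14, limma adjusted p = 0.000627), 2.09-fold higher at 12 to 21 h (1.06, SE 0.09, adjusted p = 1.57e-07) and 1.45-fold lower at 24 to 33 h (-0.54, SE 0.09, adjusted p = 0.000388). The last 2 windows overlapped, with a difference of 0.27 (adjusted p = 0.101). Pearson's r between HSPA1A and HSPA1B was 0.93 over the 16 arrays, which both probes share. The transcripts of this pair are nearly the same and the sequences of their probes were not used here, so RNA of either gene may be read by both probes.

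DNAJB1, the HSP40 that hands clients to HSP70, had its lowest signal at 3 h. The signal was 5413 at 0 h, 1875, 2295 and 3565 at 3, 6 and 9 h, and 5155, 5564, 5954 and 6682 at 12, 15, 18 and 21 h. It was 4536, 6649, 4661 and 4778 from 24 to 33 h and 5087, 5499, 6149 and 3939 from 36 to 45 h. The 3 early arrays were the lowest of the 16, and recovery was already under way at 6 and 9 h. DNAJB1 was 1.83-fold lower at 3 to 9 h (-0.87, SE 0.18, limma adjusted p = 0.0105) and 1.66-fold higher at 12 to 21 h (0.73, SE 0.12, adjusted p = 0.000141). Its value at 24 to 33 h differed from that at 12 to 21 h by -0.08 (adjusted p = 0.745), and at 36 to 45 h it differed from 0 h by 0.02 (adjusted p = 0.946). The straight line through all arrays rose by 0.66 (SE 0.21, adjusted p = 0.0154). Without the 3 h array the rise was 0.40 (adjusted p = 0.0552), and over 12 to 45 h it was 0.27 (adjusted p = 0.164), so the call rests on the low early arrays. Between 0 and 3 h DNAJB1 changed by -1.25, and 0.472% of all tested probes changed further down.

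HSPH1 encodes HSP110, which releases ADP from HSP70 and so lets it take a new client. Its signal was 15494 at 0 h, 9182, 5148 and 6411 at 3, 6 and 9 h, and 12968, 12783, 12971 and 15982 at 12, 15, 18 and 21 h. It was 6502, 9204, 6098 and 6611 from 24 to 33 h and 8113, 7340, 8035 and 6450 from 36 to 45 h. In deposited signal HSPH1 was lowest at 6 h and low again from 24 h, and on the normalized scale its lowest value was 12.52 at 27 h, with 12.65 at 9 h and 12.79 at 6 h. It was 1.94-fold lower at 3 to 9 h (-0.95, SE 0.21, limma adjusted p = 0.0164), 1.49-fold higher at 12 to 21 h (0.57, SE 0.14, adjusted p = 0.00382) and 1.84-fold lower at 24 to 33 h (-0.88, SE 0.13, adjusted p = 0.000157). Without the 6 h array the first of these differences was -0.87 (adjusted p = 0.065). At 36 to 45 h HSPH1 was 1.91-fold below 0 h (-0.93, adjusted p = 0.00112; -0.95 with array weights, adjusted p = 0.0725), and its linear change of -0.65 missed the threshold (adjusted p = 0.0568).

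HSPA1A, HSPA1B and HSPH1 passed the threshold in the order lower, higher and lower over the first 3 steps between windows, as did 17 of the 16110 tested probes (0.106%). This order was picked from their values, so the count describes them and is no test. At 3 h, 2 of the 13 probes (HSPA1A and DNAJB1) were at least 2-fold below 0 h, where 1.05% of all tested probes were. At 6 h these were HSPA1A and HSPH1, again 2 probes, where 2.64% of all were. Limma's array weights were estimated from the cubic fit, which cannot follow the early drop and return. They gave the 0 h array a weight of 0.2973 and the 45 h array 0.2698, where those of 3 to 42 h had 0.5092 or more. Whether the low weights come from that misfit was not tested. With the weights, 1 of the 4 probes was still called lower at 3 to 9 h, HSPA1A (-1.23, limma adjusted p = 0.0216). Of all tested probes, 0.0993% were called lower with these weights. The differences for the other 3 under these weights were -0.93 for HSPA1B, -1.05 for DNAJB1 and -0.74 for HSPH1 (adjusted p = 0.406, 0.417 and 1).

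**Figure D3:**
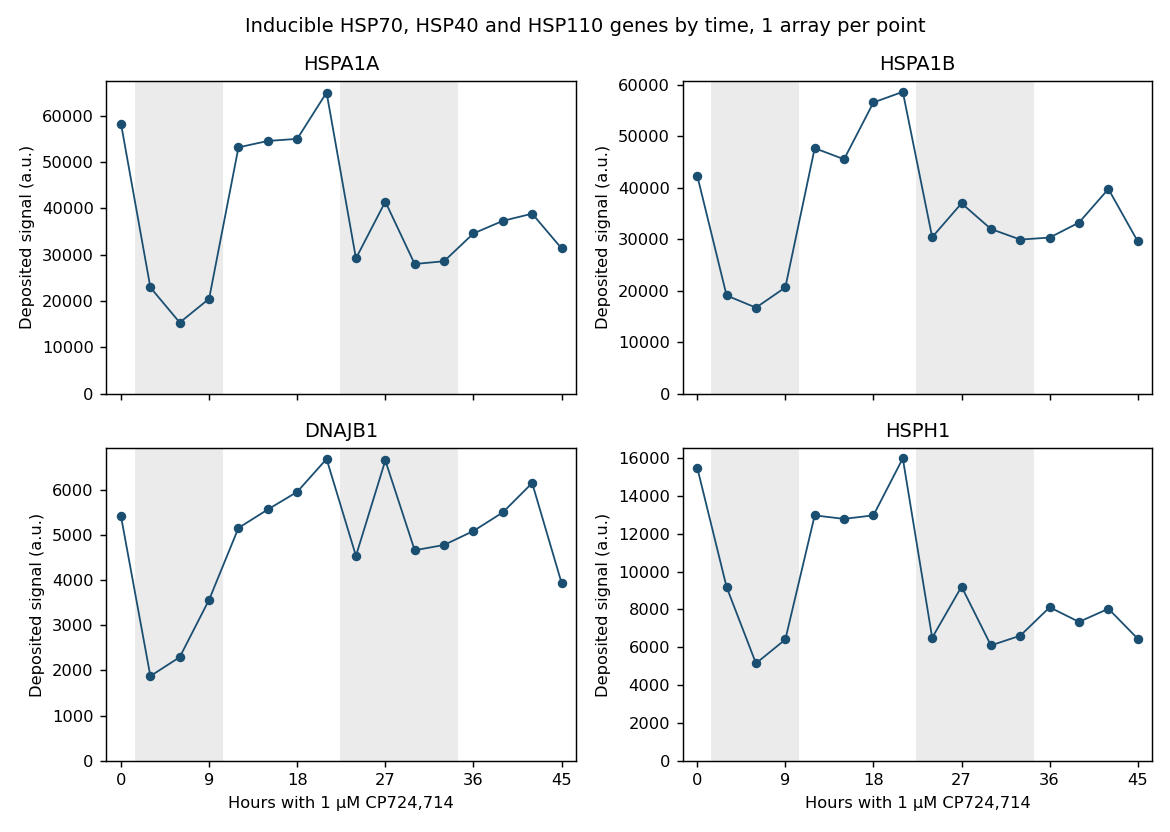
Deposited signal of HSPA1A, HSPA1B, DNAJB1 and HSPH1 against hours with inhibitor, 1 array per point, with every other window shaded. All 4 panels are low at 3, 6 and 9 h and high from 12 to 21 h; HSPA1A drops from 58262 at 0 h to 15353 at 6 h and reads 53154 at 12 h.

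HSPA8 encodes HSC70, the HSP70 that cells make at all times for everyday folding. Probe ILMN_2413084 read 62736 at 0 h, 53145, 40393 and 39368 at 3, 6 and 9 h, and 53425, 57951, 57000 and 58231 from 12 to 21 h. It then read 28282, 36563, 27101 and 24533 from 24 to 33 h and 27566, 32196, 29174 and 27273 from 36 to 45 h. No array from 24 h on reached the level of any array before it. Probe ILMN_1686367 read 62496 at 0 h and 57333 at 21 h, and 22439 to 35820 from 24 h on, with an r of 0.98 between both probes over the 16 arrays. The return seen in the deposited signal was not called after normalization. On that scale 12 to 21 h differed from 3 to 9 h by 0.07 and 0.05 (limma adjusted p = 0.642 and 0.693). The step from 12 to 21 h to 24 to 33 h was 1.84-fold down for the first probe (-0.88, SE 0.09, limma adjusted p = 7.3e-06) and 1.81-fold down for the second (-0.86, SE 0.08, adjusted p = 1.53e-06). At 36 to 45 h the probes were 1.91-fold and 2.07-fold below 0 h (-0.93 and -1.05, adjusted p = 5.31e-05 and 2.73e-06). The linear changes over the course were -1.07 (SE 0.16, adjusted p = 1.98e-05) and -1.11 (SE 0.17, adjusted p = 1.94e-05). Over the arrays of 12 to 45 h alone they were -1.11 and -1.09 (adjusted p = 0.000535 and 0.00161).

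HSPD1 encodes HSP60, the barrel in which mitochondrial proteins fold, and had the lowest adjusted p of the linear change among the 13 probes. The brightest probe (ILMN_2381397) read 47891, 37876, 28999 and 32542 from 0 to 9 h and 30533, 33286, 34465 and 35473 from 12 to 21 h. It read 23186, 31449, 22217 and 19614 from 24 to 33 h and 19214, 19323, 19873 and 14530 from 36 to 45 h. The first array was thus the highest and the last the lowest. The linear change was -1.29 with an SE of 0.07 (limma adjusted p = 2.88e-11), with a departure from a straight line (adjusted p = 0.0132). The dimmer probe (ILMN_1784367), with signals of 337 to 798, had a linear change of -1.49 (SE 0.18, adjusted p = 1.33e-06), but of -0.50 over 12 to 45 h (adjusted p = 0.17). HSPD1 did not return after the first hours: at 12 to 21 h it was lower than at 3 to 9 h by both probes (-0.39 and -0.85, adjusted p = 0.00323 and 0.00242), where 2.09-fold and 2.3-fold higher values were measured for HSPA1B and HSPA1A. At 36 to 45 h it was 2.43-fold below 0 h by the brighter probe (-1.28, adjusted p = 5.46e-07) and 2.71-fold by the dimmer (-1.44, adjusted p = 0.000481).

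HSPE1 encodes HSP10, the lid of the HSP60 barrel, from the other side of the promoter region it shares with HSPD1. Its signal was 18191, 12406, 9173 and 11419 from 0 to 9 h and 13462, 13802, 14685 and 17197 from 12 to 21 h. It was 8692, 13240, 7883 and 8702 from 24 to 33 h and 8406, 10060, 10140 and 8495 from 36 to 45 h. The higher deposited signal from 12 to 21 h was not seen after normalization, where 12 to 21 h differed from 3 to 9 h by -0.01 (limma adjusted p = 0.952). As for HSPA8, the drop lay between 21 and 24 h, with the 27 h array above its neighbours on the scale of the deposited signal. The step to 24 to 33 h was 1.46-fold down (-0.55, SE 0.08, limma adjusted p = 0.000111), and HSPE1 was 1.75-fold below 0 h at 36 to 45 h (-0.81, SE 0.12, adjusted p = 3.88e-05). Its linear change was -0.73 (SE 0.12, adjusted p = 7.97e-05). Over the 16 arrays HSPE1 had an r of 0.83 with the brightest HSPD1 probe and of 0.95 and 0.96 with the HSPA8 probes, all of which share these arrays.

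HSP90AA1 encodes the stress-inducible HSP90 alpha, and its 2 probes did not follow each other. The brighter probe (ILMN_2373515) read 70150, 69213, 59984 and 60962 from 0 to 9 h and 65839, 65262, 69733 and 67468 from 12 to 21 h. It read 54049, 64895, 56000 and 50396 from 24 to 33 h and 58760, 59259, 60122 and 47239 from 36 to 45 h. It fell by 0.28 over the course (SE 0.07, limma adjusted p = 0.00455) and was 1.2-fold lower at 24 to 33 h than at 12 to 21 h (-0.26, adjusted p = 0.00268). The step at 24 h lost its call with median scaling (-0.13, adjusted p = 0.59) and cyclic loess (-0.18, adjusted p = 0.241), on a probe at 65.9% or more of the array maximum on all arrays. The dimmer probe (ILMN_1687546), with signals of 452 to 833, had a linear change of 0.25 with an SE of 0.22 (adjusted p = 0.373), and r between the 2 probes was 0.14.

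**Figure D4:**
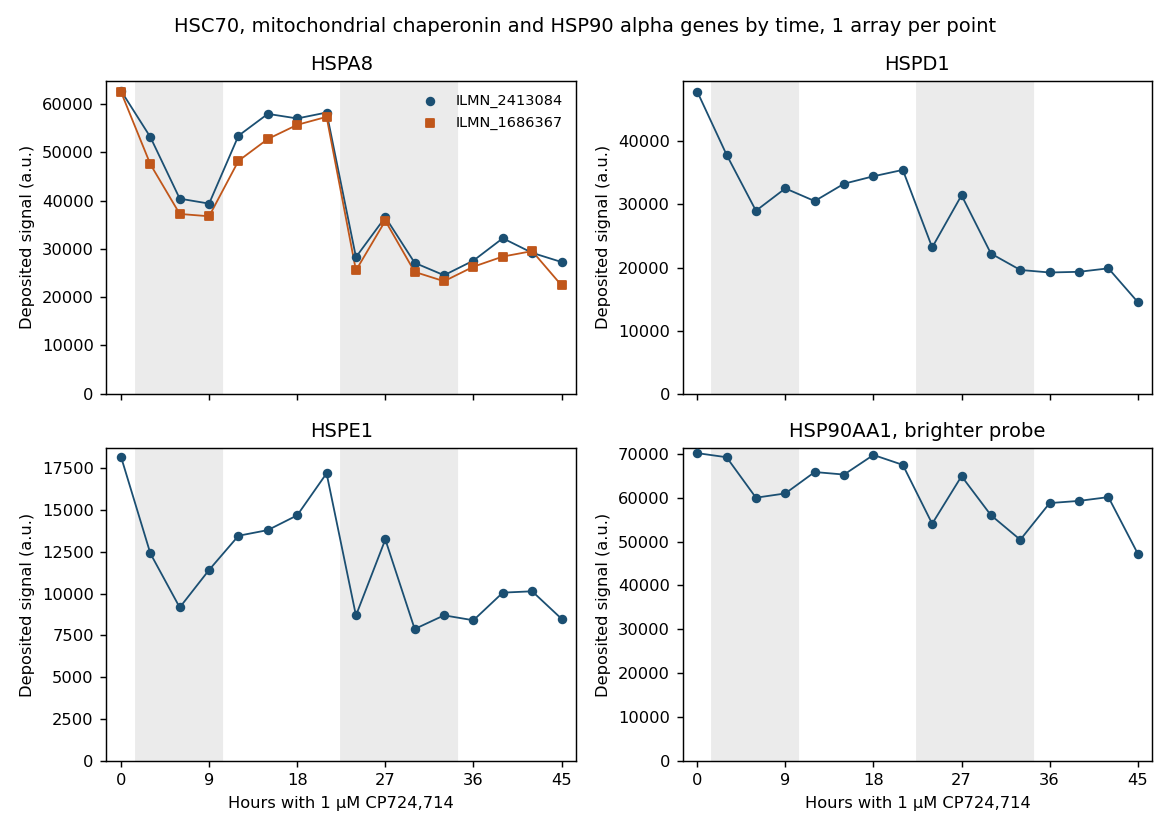
Deposited signal of HSPA8 (both probes), HSPD1, HSPE1 and the brighter HSP90AA1 probe against hours with inhibitor, 1 array per point, with every other window shaded. HSPA8 and HSPE1 step down between 21 and 24 h, and HSPD1 goes from 47891 at 0 h to 14530 at 45 h.

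In the first hours HSPA8, HSPD1, HSPE1 and HSPA9 were also below their 0 h value, with log2 differences of -0.36 and -0.46 for HSPA8, -0.35 and -0.32 for HSPD1, -0.45 for HSPE1 and -0.45 for HSPA9, none past the threshold (adjusted p between 0.0616 and 0.626). Without the 3 h array, which leaves 6 and 9 h, 9 of the 13 probes were called lower instead of 4, and the share of all tested probes called lower was 5.79% instead of 1.19%. The 5 added were both HSPA8 probes (-0.50 and -0.59, adjusted p = 0.0179 and 0.00095), the brightest HSPD1 probe (-0.47, adjusted p = 0.0155), HSPE1 (-0.56, adjusted p = 0.00241) and HSPA9 (-0.65, adjusted p = 0.0047). Between 0 and 3 h the values had changed by -0.10 and -0.20 for HSPA8, -0.11 for the brightest HSPD1 probe, -0.24 for HSPE1 and -0.05 for HSPA9, where HSPA1A had changed by -1.08 and DNAJB1 by -1.25.

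HSPA9 encodes mortalin, the HSP70 of the mitochondrial matrix. Its signal was 16961, 13437, 8198 and 10120 from 0 to 9 h and 13463, 14068, 18596 and 19016 from 12 to 21 h. It was 11246, 18429, 12965 and 10576 from 24 to 33 h and 10490, 12927, 13785 and 8417 from 36 to 45 h. Its windows after 0 h overlapped, and the linear change was -0.25 with an SE of 0.14 (limma adjusted p = 0.155; without the 9 h array -0.35, adjusted p = 0.0352). HSPB1 encodes HSP27, the small heat shock protein that is abundant in breast epithelial tumours. Its signal ranged from 68923 to 72588 and its linear change was -0.01 with an SE of 0.04 (adjusted p = 0.876), on a probe that read 94.7% or more of the array maximum throughout. With median scaling in place of quantile normalization HSPB1 was lower at 12 to 21 h than at 3 to 9 h (-0.49, adjusted p = 0.0201), where it was -0.02 after quantile normalization.

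The lines were also fitted with the 4 sets of consecutive arrays as a factor, which leaves only the trend within sets. Of the 13 probes, 12 then had a negative estimate and 0 passed the threshold, where 0.478% of all tested probes fell and 0.422% rose; at an unadjusted p under 0.05, 4 fell and 0 rose. The estimates per 45 h were -1.36 for the brightest HSPD1 probe (SE 0.33, adjusted p = 0.0617), -1.11 and -1.01 for HSPA8 (SE 0.43 for both) and -0.67 for HSPE1 (SE 0.45). These estimates pool the 4 sets, and the first set holds the drop from 0 to 9 h. In that set HSPE1 went from a log2 value of 14.11 to 13.48. In the later sets HSPE1 went from 13.70 to 13.67, 13.16 to 13.22 and 13.25 to 13.37. The first HSPA8 probe went from 15.92 to 15.25, then 15.66 to 15.51, 14.90 to 14.74 and 14.98 to 15.09. For HSPE1 and HSPA8 the estimates thus rest largely on the first set. The brightest HSPD1 probe ended lower than it began in each set. For HSPA1A the trend within sets was -1.55 (SE 0.93) against 0.16 over the whole course. Over the arrays of 12 to 45 h, 5 probes fell (13.8% of all tested probes) and 0 rose: both HSPA8 probes, HSPH1 (-0.96, adjusted p = 0.0116), the brightest HSPD1 probe (adjusted p = 2.35e-06) and HSPE1 (-0.56, adjusted p = 0.0177).

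For each gene, by its brightest probe, the 3 other genes with the most similar course were listed by Pearson's r over the 16 arrays, as a description. HSPA1A was closest to ZNF593, a zinc finger protein gene (r = 0.93), IGFBP3, which binds insulin-like growth factors (0.89), and LOC400506 (0.88). LOC400506 was also closest to HSPA1B (0.91), followed by ENC1 (0.90) and PPP2R2A, a regulatory subunit of protein phosphatase PP2A (0.88). DNAJB1 was closest to SPRY1, a feedback inhibitor of growth factor signalling (0.94), PFKFB3, an activator of glycolysis (0.89), and PUS3 (0.89). HSPH1 was closest to another chaperone gene, DNAJA1 (0.94), and to ZRANB2 (0.94) and PTRH2 (0.92). HSPD1 was closest to SRRT and PPIL1 (0.98 for both), which act in RNA processing, and to NUP93, a nuclear pore protein (0.97). HSPA8 was closest to IMP4, NSMF and KAT2A (0.95 for all 3) and HSPE1 to KAT2A (0.96), PABPN1 (0.95) and NUDC (0.94). HSP90AA1 was closest to CCT6P1, PXDN and SBK1 (0.90 to 0.92), HSPA9 to RBM38, BTBD6 and NOP58 (0.86 to 0.88), and HSPB1, with its narrow range, to FGF19, LOC647760 and PDSS2 (0.71 to 0.78).

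Other chaperone genes were taken from 8 lists with 90 genes, of which 80 had a tested probe. By the brightest probe of each gene 34 fell and 12 rose over the course, where 21.7% of all tested probes fell and 26% rose. The median linear change was -0.17 against 0.05 over all tested probes. The 2 sides are not alike, as all tested probes include further, dimmer probes of some genes, which the lists leave out. Among the other HSP70 and HSP110 proteins, 4 of 7 fell and 1 rose. HSPA4L, an HSP110 relative, fell by 1.71 (SE 0.15, limma adjusted p = 2.08e-08) and HSPA12A by 1.06 (SE 0.12, adjusted p = 7.37e-07). Over 12 to 45 h the change of HSPA12A was -0.28 (adjusted p = 0.293). Among the other HSP90 proteins and co-chaperones, 6 of 12 fell and 2 rose. TRAP1, the mitochondrial HSP90, fell by 1.41 (SE 0.12, adjusted p = 1.82e-08), and STIP1, which links HSP70 to HSP90, by 1.04 (SE 0.17, adjusted p = 4.26e-05). HSP90AB1, the constitutive HSP90 beta, was chosen after its values were seen: it fell by 1.03 (SE 0.13, adjusted p = 2.74e-06), with signals of 11641 to 36623.

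Of the subunits of TRiC, the chaperonin of the cytosol, and of its partner prefoldin, 10 of 14 fell and 1 rose, with a median of -0.39. Of 13 genes of mitochondrial import and protein quality control, 6 fell and 1 rose. TOMM40, the pore of the outer membrane, fell by 1.32 (SE 0.12, limma adjusted p = 3.59e-08). Of 16 J-domain co-chaperones, 3 fell and 4 rose, and DNAJC9, a histone chaperone of this family, fell by 1.53 (SE 0.15, adjusted p = 6.01e-08). Of 9 exchange factors and regulators of HSP70, 3 fell and 1 rose. That one was BAG1, which rose by 1.06 (SE 0.13, adjusted p = 1.77e-06), whereas HSPBP1, another exchange factor, fell by 1.08 (SE 0.17, adjusted p = 2.88e-05). Of 5 genes listed as other small heat shock proteins, 1 fell and 1 rose. The one that fell was IFT25, which the list holds under the symbol HSPB11. The one that rose was CRYAB, alpha B-crystallin, by 1.22 (SE 0.11, adjusted p = 2.87e-08), from a signal of 24199 at 0 h to between 37916 and 60626 from 24 h on, in the upper part of the scale. Of the 4 genes for heat shock factors and HSBP1, 1 fell and 1 rose, and HSF1 itself had a linear change of -0.33 (SE 0.16, adjusted p = 0.0924). Set beside these, the chaperones of the endoplasmic reticulum had 11 of 15 genes that fell and 3 that rose, with DNAJB9 rising by 1.02 (SE 0.16, adjusted p = 2.11e-05). Called shares in these lists are to be read against 21.7% of all tested probes that fell and 26% that rose.

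**Figure D5:**
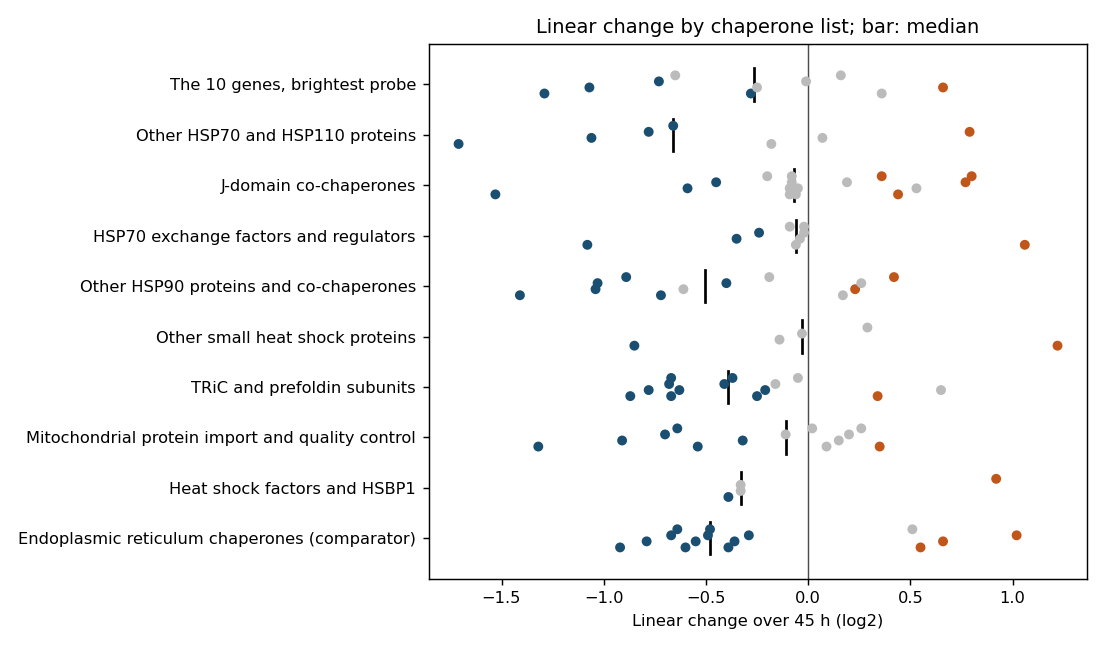
Linear change over 45 h on the log2 scale for the 10 genes (brightest probe) and for the genes of each chaperone list, 1 point per gene, blue where the gene fell, orange where it rose and grey where the test was not passed, with a bar at the median. Of the TRiC and prefoldin genes 10 of 14 are blue, and CRYAB is the point at 1.22.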

How the data were processed

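Total RNA of 16 SUM-225 cultures, 1 per time point, was hybridised to Illumina bead arrays, and samples were grouped by the time in their labels. The authors deposited signal intensity values without background subtraction or normalization, with a detection p-value beside each of them; quantile normalization is described in the study's methods and came after this table. Those methods name the Illumina human Ref8v2 array; the labels give no version, and the scanning software is not given in the sources used here. The deposited signal intensities were background corrected with the detection p-values, offset by 16, quantile normalized and log2 transformed (neqc, limma 3.58.1, R 4.3.3). Testing was limited to the 16110 probes detected (p under 0.05) on 3 arrays or more. A cubic polynomial in hours was fitted with moderated variance (eBayes with trend). The linear change is the linear term over 45 h, and F-tests of all 3 terms and of the higher terms gave the calls for time dependence and curvature. P-values were adjusted by Benjamini-Hochberg over all probes. Simulated data of the same size had 200 probes changed by 1 log2 unit. Of linear changes, 77.5% were recovered, with 3.73% of calls false. Of differences at 3 to 9 h, scored against 12 to 21 h, 79% were recovered, with 3.66% false. Recovery was not scored for differences from the 0 h window, which holds 1 array. All other simulated probes were flat, and the noise was independent between arrays, with no error shared by a set. In the data 51.3% of tested probes were called time-dependent, so the simulated rates need not hold for the calls reported here.

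The genes and lists were chosen with earlier results of these data known. The windows fit and the fit over 12 to 45 h were chosen after seeing the data. Every probe of the 10 genes is reported; from each other list, genes past the threshold with a linear change of at least 1 in size are named, at most the 2 largest in each direction. Symbols and promoters came from RefSeq (GRCh38.p14), and 91.0% of 18631 symbols matched. With 1 array per time point, p-values measure the scatter of arrays around the curve or window means, and precision is limited by the number of arrays. Alternatives were other background, offset, normalization, filter and weight settings, the set of 4 arrays as a factor and leaving out each array.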

Additional observations from a re-analysis of the deposited data

How the results depend on the processing

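No paired analysis was possible because the samples carry no shared replicate numbers, with 1 array per time. Without background correction, with an offset of 50 or with detection required on all 16 arrays, no linear change or window difference of the named probes changed its call or direction. Of 49 window differences of single probes, array weights took the call from 10, most of them against the low-weighted 0 h array, among them HSPA1A at 36 to 45 h (-0.53, adjusted p = 0.137). HSPE1 at 3 to 9 h passed the threshold with median scaling and cyclic loess (-0.57 and -0.52), as did HSPA9 at 36 to 45 h against 0 h (-0.58 and -0.54), and HSP90AA1 at 36 to 45 h lost its call with both and with no filter on dim probes. For most counts of probes given next, the share of all tested probes called under the same setting was not taken. Such counts cannot tell a change in the 10 genes from a change over all probes. Curvature was called for 2 probes, 5 with median scaling, 1 with cyclic loess and 5 with array weights, and 2 to 4 when single arrays were left out. The number of probes that fell over the course was 0 with sets of 4 arrays as a factor and 6 to 8 with single arrays left out. With sets as a factor 0.478% of all tested probes fell and 0.422% rose. The number that rose was 2 with array weights (DNAJB1 and HSPA1B, 0.62, adjusted p = 0.0295), 0 with sets of 4 arrays as a factor, 0 over 12 to 45 h, and 0 to 2 with single arrays left out (0 without 3 h, 2 without 0 h, with HSPA1B at 0.57, adjusted p = 0.0457). Of the 80 other chaperone genes, 0 rose and 1 fell with sets of 4 arrays as a factor. None of the 11 genes named from the lists for their linear change kept its call there (estimates from -1.95 for STIP1 to 1.27 for CRYAB; -0.54 for HSPA12A, 0.59 for BAG1, 0.45 for DNAJB9, -1.82 for HSPBP1). Lower probes at 3 to 9 h against 0 h numbered 1 with array weights and 3 to 9 with single arrays left out. Of all tested probes, 0.0993% were lower with array weights and 5.79% without the 3 h array, against 1.19% with the settings used throughout. Lower probes at 12 to 21 h numbered 4 with median scaling. At 36 to 45 h, 2 probes were higher than at 24 to 33 h with array weights (1 to 3 with single arrays left out, 3 without 3 h and 2 without 9 h), and 5 were lower than at 0 h with array weights. Signs turned for linear changes of HSPA1A (-1.55 with sets as a factor, -0.58 over 12 to 45 h, -0.06 to 0.48 with single arrays left out), HSPA1B (-0.51 and -0.37), DNAJB1 (-0.48 with sets as a factor), the dimmer HSP90AA1 probe (-0.47 with sets as a factor), BAG3 (0.10 with array weights, -0.22 to 0.08 with single arrays left out) and HSPB1 (0.03 with cyclic loess, 0.02 with sets as a factor, 0.0048 over 12 to 45 h, -0.02 to 0.0045 with single arrays left out). They turned for the 12 to 21 h difference of the brighter HSP90AA1 probe (-0.40 with median scaling, -0.22 with cyclic loess, -0.04 with array weights, -0.05 to 0.08 with single arrays left out) and of HSPB1 (-0.03 to 0.00094 with single arrays left out; -0.49 with median scaling, adjusted p = 0.0201). The linear change of HSPH1 passed the threshold with median scaling and cyclic loess (-0.70 in both), with array weights (-0.64) and without the 6, 9, 21 or 36 h array (-0.81, -0.79, -0.64 and -0.72). The causes were not tested. Probes at the top of the scale, above all HSPB1, limit which differences could be read, and dim probes lie close to background.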

Other observations

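Outside the 10 genes, BAG3 and DNAJA1 also had low first hours; both were chosen after their values were seen. Most HSP70 partners were not called lower at 3 to 9 h than at 0 h. Those called were 1 of 16 J-domain co-chaperones, DNAJA1 itself, and 2 of 9 exchange factors and regulators. These 2 were BAG3 and GRPEL1 (-0.63, limma adjusted p = 0.0255 for GRPEL1). The median differences of the 2 lists were -0.08 and -0.20. BAG3, an exchange factor that is itself switched on by heat shock, had a signal of 6057 at 0 h, 2812, 2709 and 3851 at 3, 6 and 9 h, and 5673, 5380, 5515 and 6555 from 12 to 21 h. It was lower at 3 to 9 h than at 0 h (-0.71, SE 0.12, limma adjusted p = 0.00163; -0.74 with array weights, adjusted p = 0.295) and higher at 12 to 21 h (0.39, SE 0.08, adjusted p = 0.000811). DNAJA1, a J-domain partner of HSC70 and the gene most similar to HSPH1, read 26544 at 0 h, 16958, 11028 and 12154 at 3, 6 and 9 h, and 20279, 21731, 22739 and 25947 from 12 to 21 h. From 24 h on it read 11820 to 18246. Its steps of -0.77 (adjusted p = 0.0211), 0.38 (0.019 as the adjusted p) and -0.62 (adjusted p = 0.000745) had the same signs as those of HSPH1. Leaving out the 6 h array ended the call of both the first (-0.76, adjusted p = 0.065) and the second (0.37, adjusted p = 0.0657), as did leaving out the 9 h array for the second (0.21, adjusted p = 0.131). With median scaling the second was 0.30 (adjusted p = 0.0821), and under array weights the first was -0.61 (adjusted p = 1). Over the 80 other chaperone genes with a tested probe, 4 were lower at 3 to 9 h than at 0 h and 1 was higher, where 1.19% and 1.14% of all tested probes were. The 4 were BAG3, DNAJA1, GRPEL1 and HSPA4L (-0.90, limma adjusted p = 0.044 for HSPA4L).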
